A study of Mus musculus with 6 samples.

Results

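The 9 genes described here encode matrix enzymes of the tricarboxylic acid cycle in mouse liver: Cs, Idh3a, Idh3b, Idh3g, Ogdh, Suclg1, Suclg2, Fh1 and Mdh2. They were chosen by symbol among the 55450 genes of a table of read counts. Succinate dehydrogenase and the partner subunits of Ogdh are given beside them as context. All 9 genes were detected in every library and passed the filter on low counts.

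The cycle oxidises the acetyl group of acetyl-CoA to carbon dioxide in the mitochondrial matrix and passes the electrons to the respiratory chain as NADH and reduced flavin. In liver its intermediates are also drawn off for glucose and fat synthesis and refilled from amino acids, so flux through its single steps can differ. Citrate synthase (Cs) opens the cycle, the Idh3 complex oxidises isocitrate, the Ogdh complex oxidises 2-oxoglutarate, succinyl-CoA ligase (Suclg1 with Suclg2) makes succinate, fumarase (Fh1) hydrates fumarate and malate dehydrogenase (Mdh2) restores oxaloacetate.

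Poly(A) RNA was sequenced from the left liver lobe of 6 mice labelled as strain C57BL/J, with 1 library per mouse. The knockout group (KO, n = 3) carried LKB1 fl/fl alleles, and the wild-type group (WT, n = 3) carried normal alleles. LKB1 is a kinase upstream of AMPK and is encoded by Stk11. Both groups received AAV8 Cre, a virus that delivers Cre recombinase mainly to hepatocytes, at 6 weeks of age, and livers were taken 4 weeks later, at 10 weeks. The labels name no promoter for Cre and no sex of the mice. The title of the series names metabolic reprogramming, and the comparison asks which transcripts differ between KO and WT liver.

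Total counts ran from 47659122 to 56147667 per library. Stk11 was at 22.2, 14.4 and 11.4 CPM (read counts scaled to a common library size) in KO replicates 1 to 3 and at 64.2 to 69.7 CPM in WT, and the log2 fold change was -2.06 (adjusted p = 0.0167, edgeR's quasi-likelihood test). The Stk11 call was lost without KO replicate 2 or 3 or WT replicate 2 or 3 (adjusted p = 0.0607 to 0.104), at log2 fold changes of -1.87 to -2.08. Replicate 1 of each group had at least 29243 Xist counts and at most 6 counts of 4 Y-linked genes. The other 4 libraries, called Y libraries below, had at most 16 Xist counts and at least 6146 Y-linked counts. KO replicate 1 therefore differs from KO replicates 2 and 3 in its Xist state and in its remaining Stk11, and values below are also given within the Y libraries and for the Xist pair, which has no replicate check. Hepatocyte markers were abundant but lay in both directions. Their sum over 7 markers, to which albumin (Alb) gave the most, was 25810 to 73230 CPM in KO and 84710 to 122600 CPM in WT. Every KO library lay below WT for 4 of them (Alb, Apoa1, Apob and Ttr) and above WT for Cps1 (2.24-fold) and Hnf4a (1.15-fold), while Serpina1a overlapped. Of these 7 markers 0 passed the threshold in edgeR, and Apoa1 and Ttr (lower) and Cps1 (higher) had an unadjusted p under 0.05. DESeq2 called 4 (Cps1 higher, Alb, Apoa1 and Ttr lower), limma voom called Apoa1, and within the Y libraries Alb, Apoa1, Apob and Ttr passed as lower in edgeR. Endothelial markers (8) summed to 101 to 161 CPM in KO and 191 to 263 CPM in WT, with 0 past the threshold in edgeR, 7 at an unadjusted p under 0.05, 4 in DESeq2 and 0 in limma voom. Within the Y libraries 7 of these 8 passed as lower in edgeR. Kupffer (7), stellate (7) and biliary (6) markers overlapped between groups in their sums, at 102 to 227, 108 to 223 and 24.95 to 74.9 CPM in KO against 141 to 194, 174 to 368 and 39.6 to 73.1 CPM in WT. Within the Y libraries 3 Kupffer, 2 stellate and 1 biliary markers passed as lower in edgeR, and 1 Kupffer marker as higher. Lymphoid and myeloid markers (6) summed to at most 1.97 CPM. Heart and skeletal muscle markers, whose tissues are rich in cycle enzymes, summed to at most 0.0986 CPM, with Myh6, Myl2 and Mb at 0 counts in all 6 libraries. Over all tested genes, every KO library lay below WT for 15.5% and above WT for 16.9%. An unadjusted p under 0.05 was reached by 26.3%, and edgeR called 3.37%, DESeq2 15.8% and limma voom 2.97% in either direction. Within the Y libraries 2340 of 14546 tested genes passed as lower in edgeR and 2507 as higher. The part of these marker differences in the results below was not tested. In bulk liver, fewer cells of a type and less RNA per cell cannot be told apart.

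Fumarase and malate dehydrogenase transcripts, the last steps of the cycle, passed the edgeR test as higher in KO liver. Ratios of group means were 5.17 for Fh1 and 3.21 for Mdh2. Idh3a and Ogdh, of earlier steps, had ratios of 3.415 and 2.753 but did not pass (edgeR adjusted p = 0.0803 and 0.0852). Citrate synthase, the first step, did not pass the test, at 0.896 of the WT mean. Of the 9 genes, 2 passed an adjusted p of 0.05 in edgeR as higher and 0 as lower, where 2.15% of 14539 tested genes were called higher and 1.22% lower. The log2 fold change was above 0 for 8 of 9, against 51.0% of all tested genes, and its median was 0.60, against 0.01 over all tested genes. An unadjusted p under 0.05 was reached by 6 of 9, all as higher, against 14.6% of tested genes. Every KO library lay above every WT library for 7 of 9, against 16.9% of tested genes. The spread between KO mice was wide: the 9 genes summed to 2080.0, 3123 and 3680.0 CPM in KO replicates 1 to 3 and to 1336, 1426 and 1326 CPM in WT replicates 1 to 3. Fh1 made up 23.9% to 28.3% of that sum in KO and 9.83% to 11.9% in WT.

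**Figure D1:**
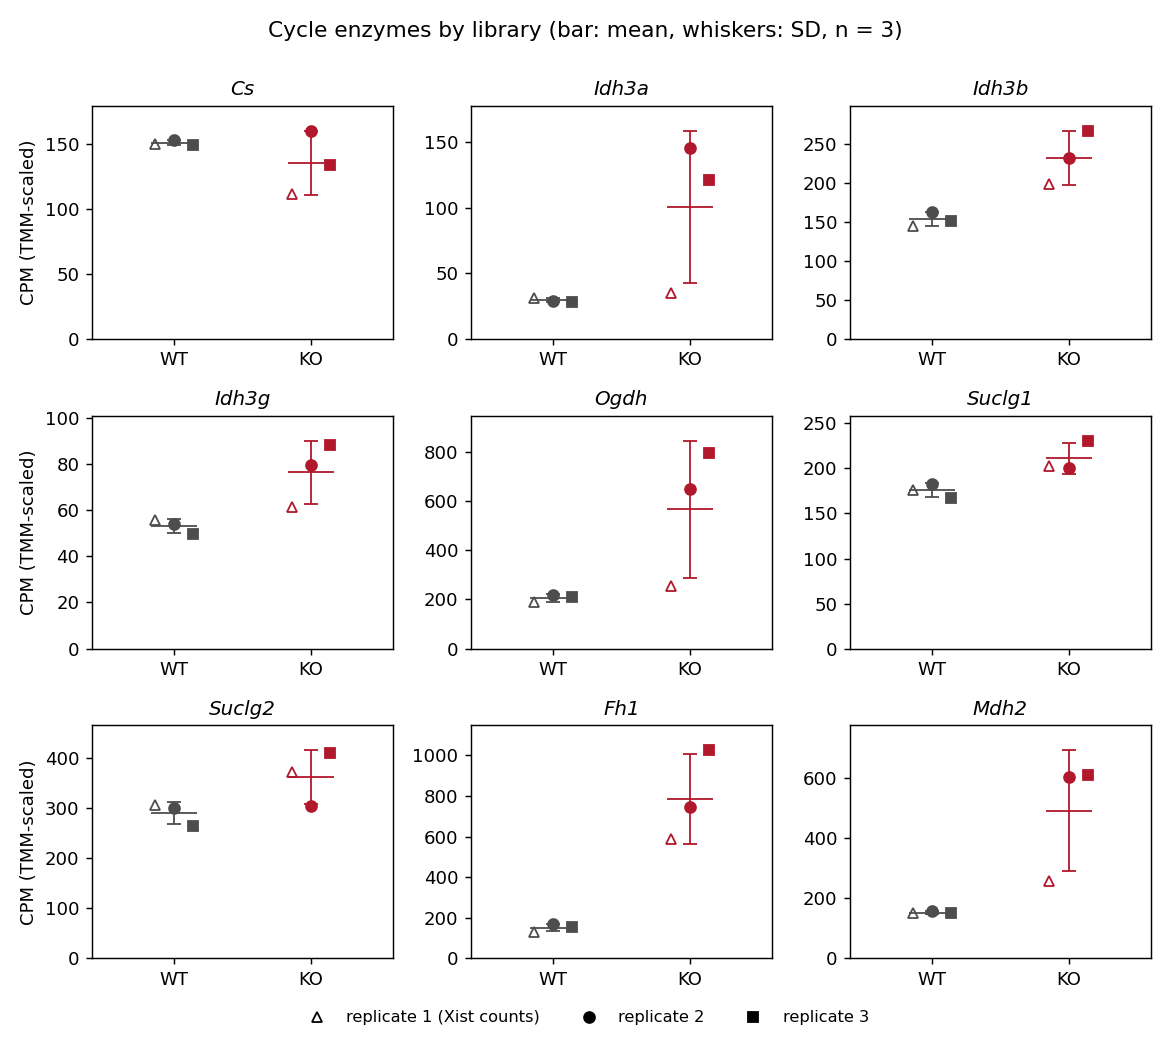
Level of each of the 9 transcripts in the 6 libraries, in CPM on a linear axis from 0. Points are single mice, the bar is the group mean and whiskers are the SD (n = 3). Fh1 and Mdh2 KO libraries all sit above the WT libraries, from 588 and 259.7 CPM upwards, and open triangles mark replicate 1 of each group, the libraries with Xist counts.

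Fumarase hydrates fumarate to malate in the matrix, and protein of the same gene also works in the cytosol, where it takes up fumarate from the urea cycle and from tyrosine breakdown. Fh1 (GRCm38 chromosome 1, 175600374 to 175625635, minus strand, protein-coding) was at 588, 748 and 1025 CPM in KO replicates 1 to 3 and at 131, 169 and 156 CPM in WT replicates 1 to 3. The lowest KO library was thus well above the highest WT library. The mean was 787 ± 221 CPM in KO and 152 ± 19.3 CPM in WT (SD, n = 3 each). On the log2 scale Fh1 rose by 2.37 ± 0.255 (SE, edgeR adjusted p = 0.0115). Fh1 was the member with the largest change in KO replicate 1, 3.87-fold above the WT mean, and the KO to WT ratio on the log2 scale was 2.16 in the Xist pair beside 2.45 in the Y libraries. Its locus overlaps that of Kmo on the other strand, with 0 shared exonic bases, and Kmo was at 346 to 469 CPM in KO and 236 to 338 CPM in WT (adjusted p = 0.246). The Fh1 call was lost in edgeR without WT replicate 2 (log2 fold change 2.45, adjusted p = 0.0964) and without WT replicate 3 (2.39, adjusted p = 0.104).

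Malate dehydrogenase of the matrix oxidises malate to oxaloacetate, and also serves the malate-aspartate shuttle and the export of malate for glucose synthesis. Mdh2 (chromosome 5, 135778480 to 135790398, plus strand, protein-coding) was at 259.7, 604 and 613 CPM in KO replicates 1 to 3 and at 152, 158 and 151 CPM in WT replicates 1 to 3. All KO libraries were above WT, and KO replicates 2 and 3 lay close together while replicate 1 lay nearer to WT. Mean levels were 492 ± 201 CPM in KO and 153 ± 3.77 CPM in WT (SD, n = 3 each). Mdh2 rose by 1.68 ± 0.333 on the log2 scale (SE, edgeR adjusted p = 0.048), with ratios of 0.78 in the Xist pair and 1.98 in the Y libraries. This call sits at the threshold. It was lost without KO replicate 2 (log2 fold change 1.51, adjusted p = 0.124), KO replicate 3 (1.498, 0.176), WT replicate 1 (1.67, 0.111), WT replicate 2 (1.70, 0.211) or WT replicate 3 (1.67, 0.213), each in edgeR.

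Promoter sequence is shown for Fh1, which rose, for Ogdh, which has the same octamer as Mdh2, and for Cs, which did not pass the test, and a stretch of 30 bases is shown for Mdh2. The 3 longer lines hold the 250 bases before a RefSeq transcript start (build GRCm38.p6), 5′ to 3′ on the gene's strand. Capitals mark TGACGTCA, the palindrome bound by CREB family factors, or its shorter form TGACG on either strand. The positions are chr5:135778511-135778540 (plus) for Mdh2, chr11:6291347-6291596 (plus, the most upstream of 6 Ogdh starts), chr1:175625636-175625885 (minus, within an intron of Kmo) for Fh1 and chr10:128337477-128337726 (plus) for Cs.
Mdh2: ggagagaatcgTGACGTCAggcctcgctcg
Ogdh: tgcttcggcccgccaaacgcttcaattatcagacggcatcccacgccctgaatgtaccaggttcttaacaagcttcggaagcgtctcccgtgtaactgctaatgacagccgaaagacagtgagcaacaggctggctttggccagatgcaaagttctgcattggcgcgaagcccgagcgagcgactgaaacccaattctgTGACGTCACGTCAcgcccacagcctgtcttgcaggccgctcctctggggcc
Fh1: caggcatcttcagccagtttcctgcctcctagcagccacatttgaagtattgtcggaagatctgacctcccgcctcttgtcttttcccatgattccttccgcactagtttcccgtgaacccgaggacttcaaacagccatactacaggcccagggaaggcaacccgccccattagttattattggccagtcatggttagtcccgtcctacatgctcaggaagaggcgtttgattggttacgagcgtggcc
Cs: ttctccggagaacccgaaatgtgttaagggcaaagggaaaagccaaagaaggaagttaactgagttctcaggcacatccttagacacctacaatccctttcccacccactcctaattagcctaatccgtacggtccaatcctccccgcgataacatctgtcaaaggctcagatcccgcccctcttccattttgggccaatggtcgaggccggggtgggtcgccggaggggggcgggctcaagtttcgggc

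In Mdh2 TGACGTCA began at position -127 from the RefSeq start used, which lies downstream of the start of the gene in GENCODE. By that annotation the octamer is in the 5′ UTR in the first exon, 42 bases after its first base. In Ogdh it began at position -51 from the start shown, outside annotated exons, and TGACG on the other strand directly follows it within the capitals. Windows of 300 bases, with 250 before and 50 after the start, were searched on both strands for 8 of the 9 genes (13 windows, 6 of them for Ogdh), and Idh3a was not matched. The octamer was found in 2 of the 8 genes, and in 1.79% of all 32851 windows, or in 2.03% of 27025 genes. The shorter TGACG, which lies within the octamer, was in 6 of 8 genes and in 23.05% of all genes, and in Fh1 it began 7 bases after the start. CCGGAAG, the core bound by GABP and other ETS factors, was in Idh3b and Idh3g, and in 9.93% of all genes. AAGGTCA, the core bound by ERR receptors, was in 1 Ogdh window and in 5.38% of all genes, and its extended form TCAAGGTCA was in 0 of 8 and in 0.466% of all genes. The NRF1 palindrome was in 0 of 8 genes, both in its exact form (1.07% of all genes) and with its sixth base left free (5.19%). A match is a description of letters in a window. TGACG, TGACGTCA and CCGGAAG each contain the dinucleotide CG. The 250 upstream bases of the 13 windows held 8 (Suclg2) to 35 (1 Ogdh window) CG, against a median of 6 over all windows. Whether the shares above differ from those of windows with as many CG was not tested.

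The catalytic subunit of isocitrate dehydrogenase was high in KO replicates 2 and 3 and near the WT level in KO replicate 1. NAD-dependent isocitrate dehydrogenase joins the catalytic alpha subunit (Idh3a) with the beta and gamma subunits (Idh3b, Idh3g), which take part in structure and regulation. Idh3a (chromosome 9, 54586334 to 54604661, plus strand) was at 35.2, 146 and 121 CPM in KO replicates 1 to 3 and at 31.1, 29.2 and 28.1 CPM in WT replicates 1 to 3. KO replicates 2 and 3 were 4.94-fold and 4.12-fold above the WT mean, and KO replicate 1 was 1.19-fold above it. The mean was 101 ± 58.0 CPM in KO and 29.5 ± 1.52 CPM in WT (SD, n = 3 each), and the log2 fold change of 1.77 ± 0.473 (SE) did not pass the threshold in edgeR (adjusted p = 0.0803). Within the Y libraries it was 2.21, with an adjusted p of 0.000616 in edgeR. The difference between that change and the change in the Xist pair, where the log2 ratio was 0.18, had an adjusted p of 0.0167 as an interaction term in edgeR. The pair is 1 KO against 1 WT library, so the residual spread in this fit comes from the Y libraries alone, and the pair is assumed to vary as they do. Idh3a was the only one of the 9 genes to pass that test, where 2.90% of tested genes did, and 4 of 9 had an unadjusted p under 0.05 for it, against 20.9%. Mdh2 and Ogdh had adjusted p-values of 0.0748 and 0.0896 for it. KO replicate 1 had the most Stk11 left among KO libraries, so the single mouse, Xist state and remaining Stk11 cannot be told apart in this result.

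Idh3b (chromosome 2, 130279309 to 130284547, minus strand) was at 198, 231 and 267 CPM in KO replicates 1 to 3 and at 145, 163 and 151 CPM in WT. Idh3g (chromosome X, 73778963 to 73786897, minus strand) was at 61.5, 79.6 and 88.2 CPM in KO and at 55.7, 54.1 and 49.7 CPM in WT replicates 1 to 3. For both, each KO library lay above each WT library, by smaller steps than for Idh3a in replicates 2 and 3. Their log2 fold changes of 0.60 ± 0.163 and 0.52 ± 0.159 (SE) did not pass the threshold in edgeR (adjusted p = 0.0836 and 0.103). Leaving out KO replicate 1 brought Idh3a (2.173, adjusted p = 0.000598), Idh3b (0.70, 0.0114), Idh3g (0.65, 0.00849) and Ogdh (1.81, 0.00154) past it. In that fit 4473 of 14833 tested genes passed in either direction, 2372 of them as higher. Idh3b shares 5 exonic bases with Nop56 on the other strand. Nop56 was at 14.6, 45.6 and 33.0 CPM in KO replicates 1 to 3 and at 14.6, 16.1 and 15.1 CPM in WT (edgeR adjusted p = 0.1465). Within the Y libraries its log2 fold change was 1.325 (edgeR adjusted p = 0.00487).

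The ratio of subunit transcripts within a library shows the same split. Idh3g was at 1.79, 1.85 and 1.77 times Idh3a in WT replicates 1 to 3, at 1.75 times in KO replicate 1, and at 0.547 and 0.727 times in KO replicates 2 and 3. For Idh3b over Idh3a the ratios were 4.66, 5.57 and 5.38 in WT, 5.62 in KO replicate 1, and 1.59 and 2.20 in KO replicates 2 and 3. The mean log2 difference between KO and WT was -1.02 for Idh3g over Idh3a and -0.94 for Idh3b over Idh3a. In two-sided exact permutation tests their p-values were 0.1 and 0.4 (0.15 and 0.48 adjusted over 6 ratios), and 0.1 is the smallest p that 3 against 3 allows. KO replicate 1 lay above the WT range of 4.66 to 5.57 for the second ratio and just below that of 1.77 to 1.85 for the first.

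2-oxoglutarate dehydrogenase holds the E1 subunit Ogdh, with the E2 subunit Dlst and the E3 subunit Dld, and releases carbon dioxide while making succinyl-CoA. Ogdh (chromosome 11, 6291633 to 6356642, plus strand) was at 252, 649.8 and 792 CPM in KO replicates 1 to 3 and at 188, 218 and 209 CPM in WT. Again all KO libraries were above WT, and KO replicate 1 was the lowest, at 1.23-fold over the WT mean against 3.17-fold and 3.86-fold. The mean was 565 ± 280 CPM in KO and 205 ± 15.2 CPM in WT (SD, n = 3 each), a log2 fold change of 1.46 ± 0.399 (SE) that did not pass the threshold in edgeR (adjusted p = 0.0852). Within the Y libraries it was 1.75 (edgeR adjusted p = 0.00228). Its partners were at 255 to 477 CPM in KO and 170.0 to 208 CPM in WT for Dlst, and at 150.2 to 254 and 128 to 153 CPM for Dld, with adjusted p-values of 0.0755 and 0.164.

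Succinyl-CoA ligase forms a nucleotide triphosphate from succinyl-CoA, with Suclg1 as the shared alpha subunit and either Suclg2 (GTP-forming, the main form in liver) or Sucla2 (ATP-forming) as the beta subunit. Suclg1 (chromosome 6, 73248382 to 73276911, plus strand) was at 202, 200.2 and 231 CPM in KO and at 176, 183 and 168 CPM in WT. Suclg2 (chromosome 6, 95473009 to 95718800, minus strand) was at 372, 305 and 409 CPM in KO and at 307, 299.6 and 264 CPM in WT. Suclg1 groups did not overlap and Suclg2 groups did. Neither passed the threshold in edgeR, with log2 fold changes of 0.27 ± 0.139 and 0.32 ± 0.174 (SE) and adjusted p-values of 0.272 and 0.290. In the Y libraries they did not pass either (adjusted p = 0.170 and 0.236). Suclg2 could share reads with the X-linked processed pseudogene Gm15163, 98.9% identical over 1302 bases, which had 205 to 317 counts per library. The Suclg2 to Sucla2 ratio was 1.95, 1.35 and 1.61 in KO replicates 1 to 3 and 2.168, 2.08 and 1.97 in WT. That was lower in every KO library, with a mean log2 difference of -0.36 (exact permutation p = 0.1, 0.15 adjusted over 6 ratios).

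Citrate synthase joins acetyl-CoA to oxaloacetate, and its activity is widely used as a measure of mitochondrial content. Cs (chromosome 10, 128337734 to 128362479, plus strand) was at 111, 160.0 and 134 CPM in KO replicates 1 to 3 and at 149.8, 153 and 149 CPM in WT. KO values lay on both sides of WT. The mean was 135 ± 24.4 CPM in KO and 151 ± 1.95 CPM in WT (SD, n = 3 each). Its log2 fold change was -0.16 ± 0.166 (SE, edgeR adjusted p = 0.571). The fold change was below 0 in all 14 alternative fits, from -0.29 to -0.04, and passed the threshold in 0 of them, with adjusted p-values from 0.324 to 0.823. Near-identical Csl and Gm48254 had at most 1 count in any library. The Mdh2 to Cs ratio was 1.01, 1.03 and 1.01 in WT replicates 1 to 3 and 2.34, 3.78 and 4.58 in KO replicates 1 to 3. Its mean log2 difference of 1.76 was the largest of the 6 ratios, with groups that did not overlap (exact permutation p = 0.1, 0.15 adjusted over 6 ratios).

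**Figure D2:**
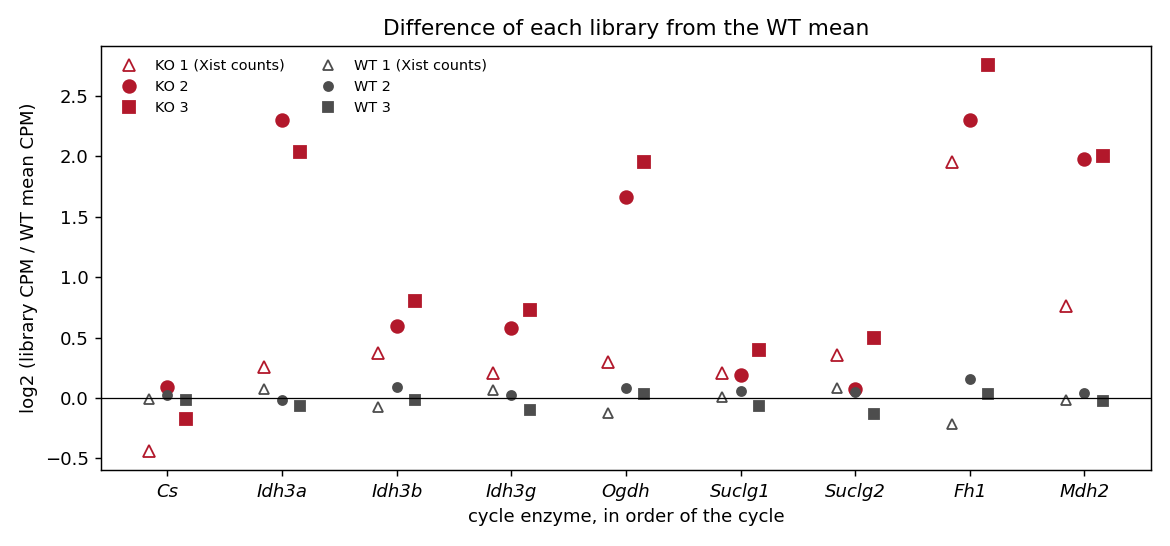
Log2 ratio of each library to the WT mean for the 9 transcripts in the order of the cycle, with KO mice in red, WT mice in grey and open triangles for replicate 1. KO replicate 1 lies within 0.44 of the WT mean for all but Mdh2 (0.76) and Fh1 (1.95), whereas KO replicates 2 and 3 lie at 1.66 to 2.75 for Idh3a, Ogdh, Fh1 and Mdh2.

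**Figure D3:**
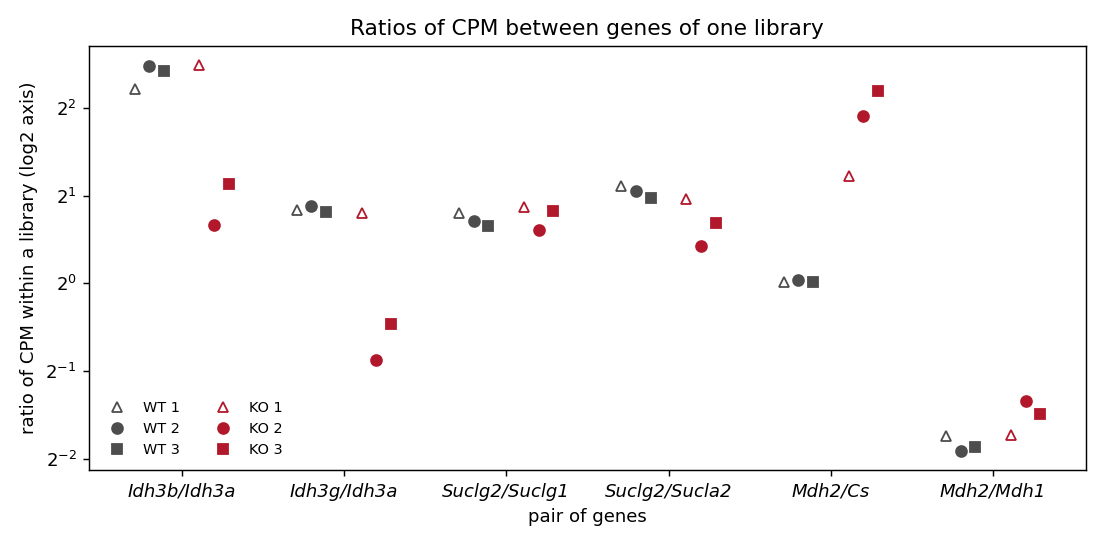
Ratio of CPM between 2 genes of the same library for the 6 pairs, on a log2 axis, with WT in grey and KO in red. Mdh2 over Cs is 1.01 to 1.03 in WT and 2.34 to 4.58 in KO, and Idh3g over Idh3a in KO replicate 1 (1.75) lies beside the WT values.

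Within the Y libraries (2 KO against 2 WT), 6 of the 9 genes passed an adjusted p of 0.05 in edgeR, all as higher, where 17.2% of 14546 tested genes passed as higher and 33.3% in either direction. These were Idh3a, Idh3b, Idh3g, Ogdh, Fh1 and Mdh2. In the Xist pair the median log2 ratio over the 9 genes was 0.28, and it was 0.69 in the other 4 libraries. All 9 log2 ratios were lower in the pair, with interaction terms from -2.04 (Idh3a) to -0.06 (Suclg2). The median term over all tested genes was -0.032, and the share of them below 0 was not counted.

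Transcript levels of different genes can be set side by side per length of the principal transcript. In WT the order was Suclg1 (116 CPM per kb), Mdh2 (105), Idh3b (94.7), Suclg2 (86.2), Fh1 (57.7), Cs (51.5), Ogdh (49.7), Idh3g (39.9) and Idh3a (12.3). The SDs over 3 WT mice were between 0.631 and 7.31 CPM per kb, and the WT ranges of Idh3b and Suclg2, of Fh1 and Cs, and of Cs and Ogdh overlapped. In KO Mdh2 (338 ± 138 CPM per kb) and Fh1 (299 ± 83.8) came first, with overlapping ranges, and Cs (46.1 ± 8.35) and Idh3a (41.9 ± 24.2) had the lowest means, with ranges of 38.0 to 54.7 and 14.6 to 60.6 CPM per kb that overlapped. Idh3a was last in KO replicate 1, and Cs was last in KO replicates 2 (54.7 against 60.6 for Idh3a) and 3 (45.7 against 50.5). Idh3b, Suclg1, Ogdh and Suclg2, at 108 to 144 CPM per kb, lay between, and Idh3g was at 57.4. The order depends on the length taken: per kb of all annotated exons, Suclg2 came first in WT (62.8) and Fh1 in KO (232), and Idh3a had the lowest mean in both. Idh3a was last there in every WT library and in KO replicate 1, and Cs was last in KO replicates 2 and 3.

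The other cycle subunits had log2 fold changes above 0 without passing the test. NADP-dependent isocitrate dehydrogenase (Idh2), Dlst, Dld, Sucla2 and succinate dehydrogenase (Sdha to Sdhd) make up this list, and 8 of 8 had a log2 fold change above 0, with a median of 0.81. By edgeR 0 of 8 passed the threshold, against 3.37% of all tested genes in either direction, and 7 of 8 had an unadjusted p under 0.05, against 26.3%. DESeq2 called 6 of 8 and limma voom 0, where DESeq2 called 15.8% and limma voom 2.97% of all tested genes, and scaling by library size alone called Sucla2, Sdhb and Sdhd. In the Y libraries 7 of 8 passed as higher in edgeR, all but Sdha, where 17.2% of tested genes did. Without KO replicate 1, 8 of 8 passed, where 4473 of 14833 tested genes passed in either direction. Idh2 was at 169, 222 and 266 CPM in KO and at 126, 84.5 and 80.2 CPM in WT (log2 fold change 1.17, edgeR adjusted p = 0.0552). The flavoprotein subunit Sdha was at 584 to 853 CPM in KO and 505 to 603 CPM in WT (0.40, adjusted p = 0.255), and Sdhb, Sdhc and Sdhd had log2 fold changes of 0.94, 0.57 and 0.99 (adjusted p = 0.0566, 0.105 and 0.0658). Sucla2 was at 191 to 254 CPM in KO and 134 to 144 CPM in WT (0.68, adjusted p = 0.064).

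**Figure D4:**
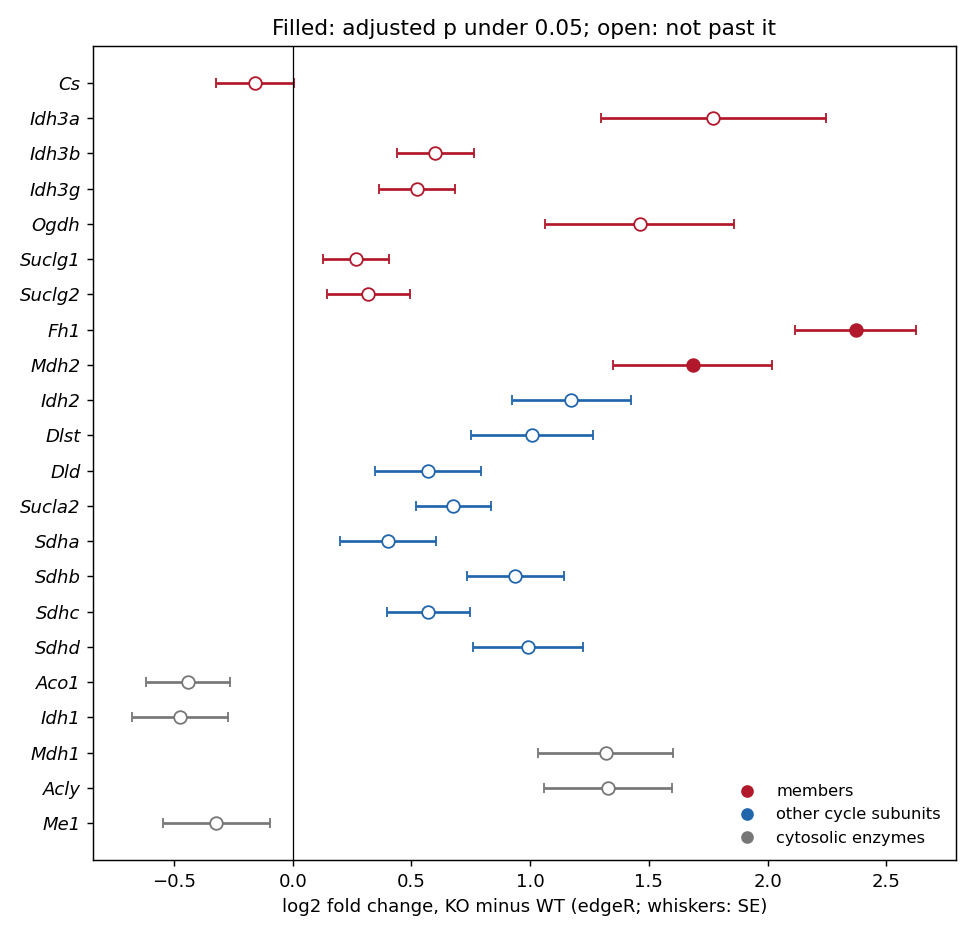
Log2 fold change of KO over WT from edgeR, with its SE, for the 9 genes (red), 8 other cycle subunits (blue) and 5 cytosolic enzymes (grey). Filled points passed an adjusted p of 0.05, which only Fh1 (2.37) and Mdh2 (1.68) did, and the cytosolic Aco1, Idh1 and Me1 lie below 0.

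Cytosolic enzymes of linked reactions lay in both directions. The median log2 fold change of the 5 genes was -0.32, and 0 passed the threshold in edgeR. An unadjusted p under 0.05 in edgeR was reached by 3, and DESeq2 called 2 and limma voom 1. Over all tested genes the shares were, in the same order, 3.37%, 26.3%, 15.8% and 2.97%. Cytosolic malate dehydrogenase Mdh1 was at 864, 1531 and 1718 CPM in KO and at 508, 593 and 548 CPM in WT (log2 fold change 1.32 ± 0.285, adjusted p = 0.0566). The Mdh2 to Mdh1 ratio was 0.301, 0.395 and 0.357 in KO and 0.298, 0.265 and 0.275 in WT replicates 1 to 3, a mean log2 difference of 0.32 (exact permutation p = 0.1, 0.15 adjusted over 6 ratios). ATP citrate lyase Acly, which cleaves exported citrate, was at 594, 517 and 968 CPM in KO and 246 to 297 CPM in WT (1.33, adjusted p = 0.0507). Aco1, Idh1 and Me1 had log2 fold changes of -0.44, -0.47 and -0.32 (adjusted p = 0.173, 0.193 and 0.399). Mdh1 and Acly passed as higher in edgeR within the Y libraries, at 1.504 and 1.45 (adjusted p = 0.00441 and 0.0228). Me1 passed there as lower, at -0.63 (adjusted p = 0.0348). In that fit 17.2% of tested genes passed as higher and 33.3% in either direction.

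In edgeR 2.15% of all tested genes passed as higher and 1.22% as lower. Among 11 tested enzymes that feed or drain the cycle, 1 passed as higher and 0 as lower in edgeR, with a median log2 fold change of 0.23. The gene was Gpt2, the mitochondrial alanine aminotransferase, whose reaction links glutamate and 2-oxoglutarate. It was at 614, 1142 and 862 CPM in KO and 212, 320 and 266 CPM in WT (1.71 ± 0.285, adjusted p = 0.0331). Pck2 and Mcee came next, with log2 fold changes of 1.47 and 0.55 and adjusted p-values of 0.0664 and 0.0687. Of 6 carriers of cycle intermediates, 1 passed as higher and 0 as lower (median 0.00). Slc25a11, which exchanges 2-oxoglutarate for malate, was at 80.9, 97.2 and 106 CPM in KO and at 57.6 to 60.1 CPM in WT (0.69 ± 0.136, adjusted p = 0.048). The aspartate-glutamate carrier Slc25a12 (1.19, adjusted p = 0.0519) and the citrate carrier Slc25a1 (-0.54, adjusted p = 0.191) did not pass. Within the Y libraries Slc25a12 passed as higher (1.41, edgeR adjusted p = 0.000799) and Slc25a1 as lower (-0.84, 0.0236). Of the 6 carriers 2 passed there as higher and 1 as lower, where 33.3% of tested genes passed in either direction. For Gpt2 the log2 ratio was 1.533 in the Xist pair and 1.774 in the Y libraries, and for Slc25a11 0.429 and 0.808. The call of Gpt2 was lost without any 1 library other than KO replicate 1 (edgeR adjusted p = 0.0743 to 0.170), and that of Slc25a11 without the same libraries (0.107 to 0.222), with the other scaling of library sizes (0.0501) or with no filter on low counts (0.054).

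Of 12 genes for mitochondrial import, pores, chaperones and DNA upkeep, 0 passed in edgeR, and 9 had an unadjusted p under 0.05, where 26.3% of all tested genes had one. DESeq2 called 5 and limma voom 0, against 15.8% and 2.97% of all tested genes. Within the Y libraries 9 of the 12 passed as higher in edgeR, where 6 of the 9 enzymes and 17.2% of tested genes did. Every KO library lay above every WT library for 10 of the 12, against 7 of the 9 enzymes and 16.9% of tested genes. The median log2 fold change of the 12 was 0.62, near the 0.60 of the 9 enzymes. Hspe1, Vdac1 and Tomm40 had the smallest adjusted p-values, 0.0598, 0.0765 and 0.097, at log2 fold changes of 1.07, 0.74 and 0.68. Of 11 tested transcription factors and coactivators of nuclear mitochondrial genes, 2 passed as higher and 0 as lower in edgeR (median log2 fold change 0.14). Over all tested genes 2.15% passed as higher and 1.22% as lower. An unadjusted p under 0.05 in edgeR was reached by 4 of the 11, against 26.3%. Every KO library lay above every WT library for 3 of them and below for 1, against 16.9% and 15.5% of tested genes. The coactivator Ppargc1a was at 24.7, 75.2 and 76.4 CPM in KO replicates 1 to 3 and at 12.3, 5.75 and 4.28 CPM in WT (log2 fold change 2.98 ± 0.565 SE, adjusted p = 0.0446). Esrra, the nuclear receptor it works with, was at 26.95, 64.2 and 48.3 CPM in KO and at 14.3, 16.7 and 17.4 CPM in WT (1.53 ± 0.303, adjusted p = 0.048). For Ppargc1a the log2 ratio was 0.998 in the Xist pair and 3.892 in the Y libraries, and for Esrra 0.912 and 1.715. Without KO replicate 2 or 3 or WT replicate 2 or 3 both calls were lost in edgeR (adjusted p = 0.118 to 0.211 for Ppargc1a and 0.104 to 0.211 for Esrra), and Esrra did not pass without WT replicate 1 (0.114) or in limma voom (0.0577). Tfb1m, a mitochondrial RNA methyltransferase, came next, at 0.53 on the log2 scale (adjusted p = 0.113).

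The genes whose levels over the 6 libraries lay nearest to the mean profile of the 9 enzymes were Slc25a3, Glrx, Ndufv2, Vamp8 and Atp5o. Likeness was the root-mean-square distance between centred log2 CPM profiles, over 7495 other genes with a mean of at least 10 CPM, and it was 0.0265 to 0.0482 for these 5. Slc25a3, the mitochondrial phosphate carrier, was at 323, 512 and 542 CPM in KO replicates 1 to 3 and at 229, 238 and 231 CPM in WT. Ndufv2 is a subunit of complex I and Atp5o of ATP synthase. The distances of the 9 enzymes to their own mean ran from 0.211 for Idh3b to 0.725 for Fh1. The 5 genes were picked for the smallest distances and the enzymes were not, so these values cannot be set against each other.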

How the data were processed

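Values were expected counts, reads per gene as RSEM estimates them, deposited without normalisation for 55450 genes in 6 libraries. Per the submitters' processing notes, bcl2fastq 2.17, cutadapt 1.18, STAR 2.7.0f and RSEM 1.3.1 were used, and these notes name the build mm9. All 55450 identifiers, with versions, were found in GENCODE mouse release 21 (GRCm38), from which positions were taken. The strand setting is not given in the sources used here, so overlapping genes on opposite strands may share reads.

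Columns were matched to samples by description, with 0 left over. Counts were rounded, filtered with filterByExpr (14539 genes left), scaled by TMM and compared by group in edgeR 4.0.16 (quasi-likelihood test, R 4.3.3), with Benjamini-Hochberg adjustment over all tested genes and a threshold of 0.05. The SE is the log2 fold change over the square root of F. An interaction of group with Xist state was fitted likewise. Log2 ratios between libraries carry an offset of 0.1 CPM, and log2 CPM profiles a prior count of 2. Alternatives were DESeq2 1.42.0, limma 3.58.1 voom, other scalings, no filter, a replicate block, Xist state and leaving out libraries. The edgeR fit was also run on simulated counts, in which no single library was made to deviate. Results of that run are not given here. P-values of the main fit weigh the difference between groups against the spread between 3 mice per group. Fits that leave out libraries rest on fewer mice.

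The 9 genes, the gene lists, the motifs and the tests were chosen with earlier results of these data known. Named genes were all 9 enzymes, all other cycle and cytosolic genes of the lists, genes of the remaining lists past the threshold (up to 3 by adjusted p where fewer than 3 passed), the 5 genes of nearest profile, and Stk11. Kmo, Nop56 and pseudogenes are named for overlap or similarity of sequence. A further gene of the list of other cycle subunits is not reported here.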

Additional observations from a re-analysis of the deposited data

Results flagged for a closer look

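The change of Idh3a between KO and WT differed between the Xist pair and the 4 Y libraries, those with Y-linked counts. The interaction term was -2.04 on the log2 scale (edgeR adjusted p = 0.0167, unadjusted p = 0.000136), with a log2 ratio of 0.18 in the pair and 2.21 in the 4 libraries. The pair is 1 library against 1, so the Y libraries alone supply the residual spread of this test, and whether the pair varies as they do was not tested. KO replicate 1 also had the highest Stk11 level of the KO libraries, 22.2 CPM against 14.4 and 11.4 CPM. The single mouse, Xist state and remaining Stk11 cannot be told apart here.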

How the results depend on the processing

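Fold changes of all 9 enzymes kept their sign in the 14 alternative fits, and the call of Fh1 held in 12 and that of Mdh2 in 8 of them. The median log2 fold change of the 9 stayed between 0.49 and 0.70 when 1 library was left out. Counts of calls depended far more on the setting. Over all genes 490 passed, against 771 with no filter on low counts, 2290 with DESeq2, 1504 with Xist state as a term, 4847 in the Y libraries, and 6 (without WT replicate 2) to 4473 (without KO replicate 1) when 1 library was left out. Among calls 63.9% were higher, and 74.4% with library size alone. Of the 9 enzymes 2 passed, against 5 with DESeq2, 6 in the Y libraries, and 0 (without WT replicate 2 or 3) to 6 (without KO replicate 1) on leaving out 1 library. Of the other 8 cycle subunits 0 passed, against 3 with library size alone, 2 with no filter, 6 with DESeq2, 5 with Xist state as a term, 7 in the Y libraries and 0 to 8 on leaving out 1 library. The interaction with Xist state was called for 1 of the 9, and for 2, Idh3a and Ogdh, with library size alone. The mean log2 difference of the Suclg2 to Suclg1 ratio, 0.05 (exact permutation p = 0.7), was -0.006 without KO replicate 1, and these differences ran from -0.006 to 0.13. The cause of these changes was not tested.

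Same-numbered KO and WT mice are different animals, and their deviations from the group means correlated at 0.178, 0.044 and 0.068, so the numbers were not taken as pairs. KO replicates 2 and 3 each correlated more with a differently numbered WT library (0.12 and 0.203). With the replicate number as a block 105 genes passed, of the 9 enzymes 1, Fh1, and of the other subunits 0. The calls of Mdh2 (adjusted p = 0.0872), Gpt2 (0.0512), Slc25a11 (0.0949), Ppargc1a (0.0981) and Esrra (0.0664) did not pass with it. All 9 enzymes lay far above the floor of 3 counts in every library.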
